A study of Mus musculus with 8 samples.

Results

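Cholesterol synthesis, fatty acid synthesis and lipid efflux were followed through 29 genes in myeloid cells sorted from mouse brain tumors. The genes were chosen by name, with no measured value in the rule, and all 29 were found among the 55450 genes of the read count table. Of these, 28 passed the filter on low counts, which kept 16467 genes. Idi1, an isomerase of the mevalonate pathway, did not pass, with 0 to 12 counts in a library. Both populations came from isogenic gliomas of the mouse line GL261, implanted in the brain of mice whose genotype is given as WT, with no other treatment named. Microglia, the resident macrophages of the brain (3 libraries), were sorted as F4/80+ CD11b+ CD45 low cells with little or no CD49d. Bone marrow-derived macrophages (BMDM, 5 libraries) were sorted as F4/80+ CD11b+ CD45+ CD49d high cells. Both gates took cells negative for Ly6G and low or negative for Ly6C. Age and sex of the mice, and whether each library came from its own mouse, are not given in the sources used here, and the p-values therefore cover the spread between libraries, which may be technical. A bulk library cannot tell fewer cells of a type from less RNA per cell.

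Cells build cholesterol from acetyl-CoA through the mevalonate pathway, and the SREBP transcription factors, held back by INSIG proteins when sterols are plentiful, switch on the enzymes. The same acetyl-CoA feeds fatty acid synthesis, whose products are lengthened by ELOVL enzymes and desaturated by SCD enzymes. When cholesterol accumulates, oxysterols activate the liver X receptors, which raise the exporters ABCA1 and ABCG1, and SOAT1 stores the excess as esters. Macrophages meet this load when they take up dead cells and, in the brain, myelin.

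The libraries held 5890406 to 16659154 counts. BMDM 4 and BMDM 5 stood apart. Of genes expected there at 20 or more counts from the other BMDM libraries, 14.2% and 10.6% had no count, against 0.883% to 3.80% in the other 6 libraries. BMDM 4 had 0 counts for 8 of the 29 genes, which were Idi1, Fdps, Fdft1, Sqle, Lss, Nsdhl, Sc5d and Elovl6, and BMDM 5 for 2 (Idi1 and Lss). A count of 0 in BMDM 4 allows up to 0.478 CPM (the count scaled to library size), for counting error alone. Results are therefore given with all libraries and with BMDM 1 to 3 alone. The share of counts on Gm42418, a model overlapping ribosomal RNA, was 34.0% to 47.0% for microglia. It was 14.8% to 19.8% for BMDM 1 to 3, then 41.2% for BMDM 4 and 48.9% for BMDM 5. The labels were checked on 10 markers each: the microglial list summed to 1442 to 4059 CPM in microglia and 216 to 892 in BMDM, and the BMDM list to 449.7 to 806 and 1226 to 3859.

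Nr1h3, which encodes the liver X receptor LXR-alpha, was 24.3-fold higher in BMDM and was the one gene of the set to pass the test. With edgeR's quasi-likelihood test and Benjamini-Hochberg adjustment over all genes tested, 1 of the 28 genes was higher in BMDM and 0 were lower, where 1.11% of all genes were called higher and 0.814% lower (1.93% in either direction). At an unadjusted p under 0.05, 1 was higher and 2 were lower (background 6.49% and 7.27%), and DESeq2 also called 1 higher and 0 lower (background 3.74% and 1.95%). The median log2 fold change (BMDM minus microglia) of the 28 was -0.17, beside 0.08 over all genes. The value was negative for 17 of the 28 and for 46.9% of genes tested. With BMDM 1 to 3 alone, 2 of 28 were higher (Nr1h3 and Elovl5; background 6.35%) and 4 were lower (Sc5d, Scd1, Scd2 and Abca1; background 8.11%). In that comparison the groups also differ in their share of Gm42418, without overlap, and the part this plays was not tested.

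**Figure D1:**
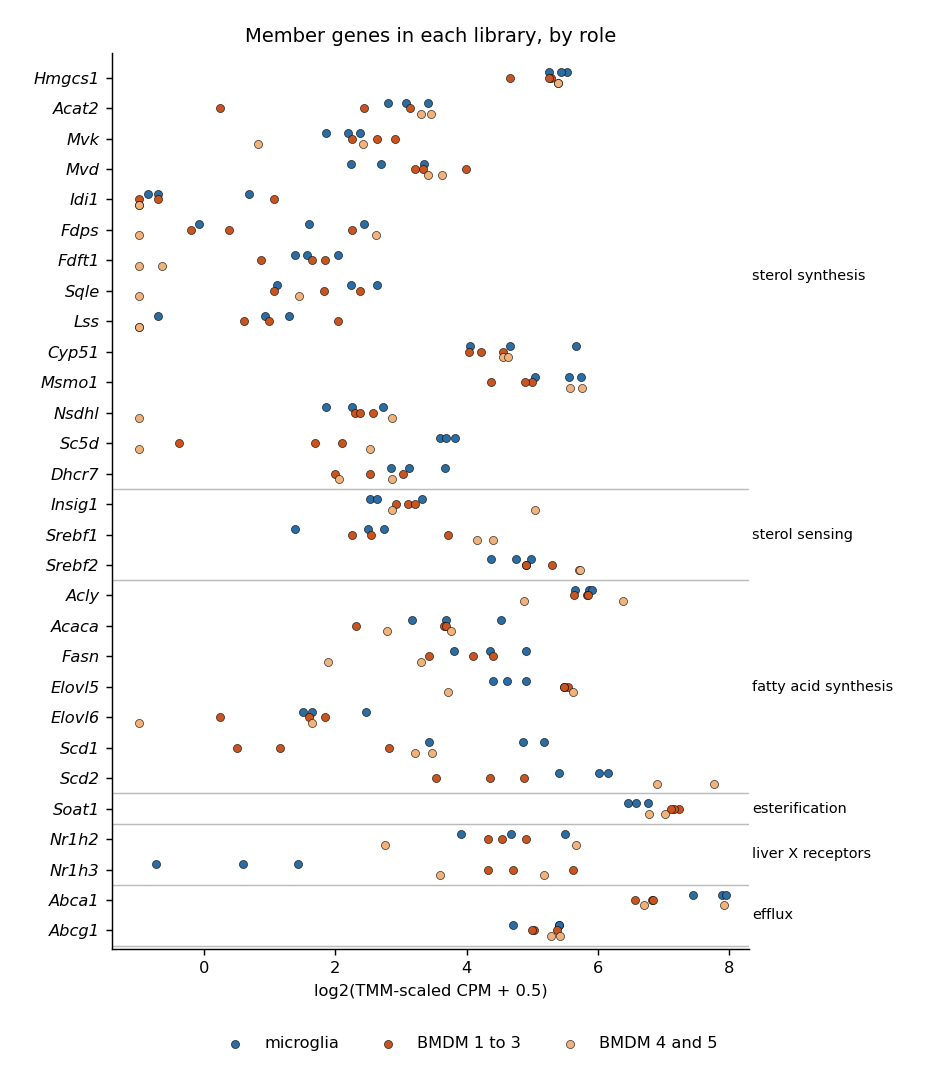
Level of each of the 29 genes in each library, as log2 of TMM-scaled CPM plus 0.5 (horizontal axis), grouped by role; blue points are microglia, dark orange BMDM 1 to 3 and light orange BMDM 4 and 5. Nr1h3 is the gene whose BMDM points (11.6 to 48.6 CPM) lie farthest above microglia (0.101 to 2.21 CPM), and the light points at the left edge include the genes without a count in BMDM 4.

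**Figure D2:**
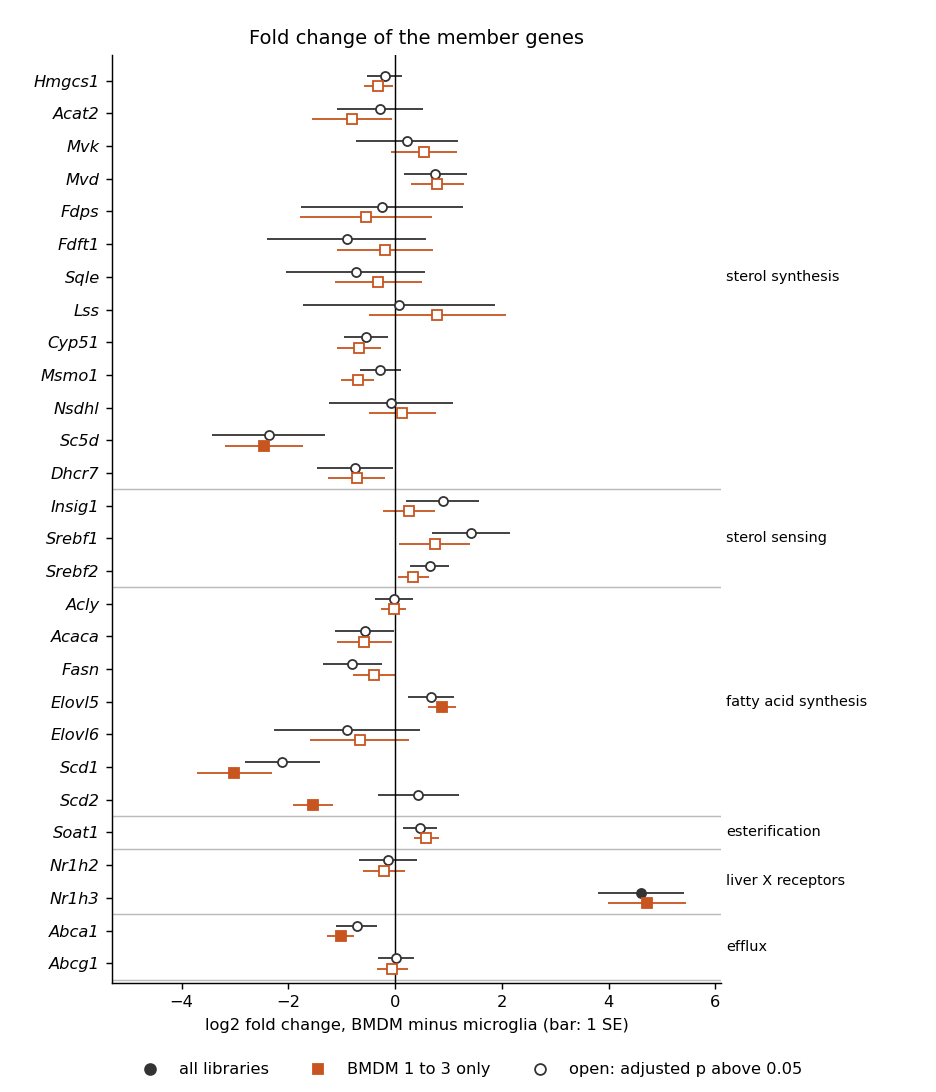
Log2 fold change (BMDM minus microglia) with 1 SE for the 28 genes tested, with all libraries (circles) and with BMDM 1 to 3 alone (squares); filled symbols have an adjusted p below 0.05. Nr1h3 is filled in both, and Scd2 lies at 0.43 with all libraries and at -1.55 with BMDM 1 to 3.

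Of the liver X receptor genes, Nr1h3 was higher in BMDM and Nr1h2 did not pass the test. Nr1h3 (GRCm38 chr2:91184061-91202834, minus strand, GENCODE M21) had 2.21, 0.101 and 1.00 CPM in microglia 1 to 3 (42, 1 and 9 counts), and 25.7, 19.5, 48.6, 35.7 and 11.6 CPM in BMDM 1 to 5. Every BMDM library was above every microglia library, and BMDM 5, the lowest of its group, was still above microglia 1, the highest of the other. Microglia averaged 1.10 ± 1.06 CPM (SD, n = 3), BMDM 28.2 ± 14.4 CPM (SD, n = 5), and the log2 fold change was 4.60 (SE 0.80, adjusted p = 0.00758). With BMDM 1 to 3 the value was 4.72 (SE 0.72, adjusted p = 0.00263). It was 5.65 without microglia 1, and the call was lost without microglia 3 (adjusted p = 0.0609) and with limma-voom (adjusted p = 0.0700). Nr1h2, which encodes LXR-beta, had 14.6, 25.1 and 44.7 CPM in microglia and 22.8, 19.5, 29.5, 50.1 and 6.22 in BMDM. Its libraries overlapped throughout, and its log2 fold change was -0.13 (SE 0.55, adjusted p = 0.963), turning to 0.30 without microglia 3 and 0.11 without BMDM 5. Of the summed counts of both receptor genes, Nr1h3 held 13.2%, 0.398% and 2.19% in microglia. In BMDM 1 to 5 it held 53.0%, 50%, 62.2%, 41.6% and 65.1%, so BMDM 5, low in both genes, had the highest share. This share was chosen after the values were seen.

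Markers of dendritic cells, which the BMDM gate could hold, summed over 5 genes to 1.16 to 4.53 CPM in microglia, 17.1 to 63.9 for BMDM 1 to 4, and 2.90 for BMDM 5, and 1 of 4 tested (Ccr7) was called higher. T cell markers (6 genes) summed to 2.78 to 16.5 CPM in microglia and 25.4 to 93.9 in BMDM, and none was called. In BMDM 5 Flt3 stood at 2.63 CPM and Ccr7 at 0.276, and Xcr1, Zbtb46 and Cd209a were at 0. The part of these cells in the Nr1h3 levels was not tested.

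The promoter windows of the genes on which the description turns, or which show the motifs, are printed here so that the letters can be set beside the counts. They run from 250 bases before to 50 after the start, 5′ to 3′ on the gene's strand, from RefSeq (GRCm38.p6), whose table held 23 of the 29 genes in 28 windows. Capitals mark matches on either strand to the CCAAT box (CCAAT, or ATTGG on the other strand), the E-box (CACGTG) and CACCCCAC, the core of the sterol regulatory element. Nr1h3 is shown as the called gene, Sc5d as the sterol enzyme whose groups did not overlap, Hmgcs1 as the entry enzyme with the sterol core, and Abca1 as the exporter.
Nr1h3 (chr2:91195067-91195366, minus strand): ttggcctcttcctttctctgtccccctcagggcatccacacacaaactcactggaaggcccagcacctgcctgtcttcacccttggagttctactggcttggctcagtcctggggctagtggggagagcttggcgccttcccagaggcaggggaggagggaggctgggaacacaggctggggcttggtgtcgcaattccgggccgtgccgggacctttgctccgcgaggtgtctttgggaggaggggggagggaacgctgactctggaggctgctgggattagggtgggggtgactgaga
Sc5d (chr9:42264251-42264550, minus strand): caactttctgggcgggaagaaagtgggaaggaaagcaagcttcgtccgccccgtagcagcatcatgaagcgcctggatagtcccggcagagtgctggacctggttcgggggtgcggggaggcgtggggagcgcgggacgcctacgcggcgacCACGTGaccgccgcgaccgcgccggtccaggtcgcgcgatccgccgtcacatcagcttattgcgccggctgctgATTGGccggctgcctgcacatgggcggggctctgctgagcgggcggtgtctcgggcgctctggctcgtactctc
Hmgcs1 (chr13:119690101-119690400, plus strand): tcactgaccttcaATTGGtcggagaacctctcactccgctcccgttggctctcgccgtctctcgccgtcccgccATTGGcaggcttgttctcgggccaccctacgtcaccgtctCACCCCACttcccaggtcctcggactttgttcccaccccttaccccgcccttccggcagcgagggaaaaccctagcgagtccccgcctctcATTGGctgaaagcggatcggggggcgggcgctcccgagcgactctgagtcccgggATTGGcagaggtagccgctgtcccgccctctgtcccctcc
Abca1 (chr4:53159846-53160145, minus strand): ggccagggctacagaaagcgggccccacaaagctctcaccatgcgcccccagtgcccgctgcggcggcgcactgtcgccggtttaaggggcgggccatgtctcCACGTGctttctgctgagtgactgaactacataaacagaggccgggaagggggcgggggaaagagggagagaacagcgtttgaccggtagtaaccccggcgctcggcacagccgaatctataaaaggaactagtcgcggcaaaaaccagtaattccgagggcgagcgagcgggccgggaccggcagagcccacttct

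The printed Nr1h3 window held none of these motifs, nor did a second, overlapping window of that gene. Hmgcs1 held CACCCCAC 136 bases before its start, and Sc5d an E-box 98 bases and a CCAAT box 24 bases before. Abca1 held an E-box 147 bases before its start. Across the 23 genes, 17 (73.9%) held CCAAT, against 43.0% of the tested genes with a window, and 10 of 11 sterol synthesis genes did. An E-box was found in 5 genes (21.7%, against 11.4%), and CACCCCAC in Hmgcs1 and Acat2 (8.70%, against 3.68%). The full sterol element (CACCCCAC preceded by AT) matched 0 of the 23 genes, and 0.091% of all windows in the table. The DR4 element of liver X receptors was searched only as an exact repeat (AGGTCA repeated after 4 bases). It also matched 0 of the 23, and 0.015% of all windows. Of the 10696 tested genes with a window, 5 held the full sterol element and 0 the exact DR4 repeat. With matches this rare, 0 of 23 cannot tell whether these genes hold either element. Inexact copies were not searched. No match says only that these letters are not in this window.

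Neither exporter gene was called with all libraries. Abca1, which loads cholesterol onto apolipoprotein A-I, had 175, 238 and 246 CPM in microglia and 113, 94.1, 114, 104 and 243 CPM in BMDM. BMDM 1 to 4 were below all microglia, and BMDM 5 lay within their range. With all libraries the log2 fold change was -0.72 (SE 0.38, adjusted p = 0.457). With BMDM 1 to 3 it was -1.02 (SE 0.26, adjusted p = 0.0225), and without BMDM 5 it was -1.05 (adjusted p = 0.0332). Abcg1, which exports cholesterol to mature high-density lipoprotein, had 42.0, 25.5 and 41.9 CPM in microglia and 32.0, 31.3, 41.0, 42.2 and 38.7 in BMDM. These ranges overlapped and the fit gave 0.02 (SE 0.33, adjusted p = 0.992), and the sign differed between settings.

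**Figure D3:**
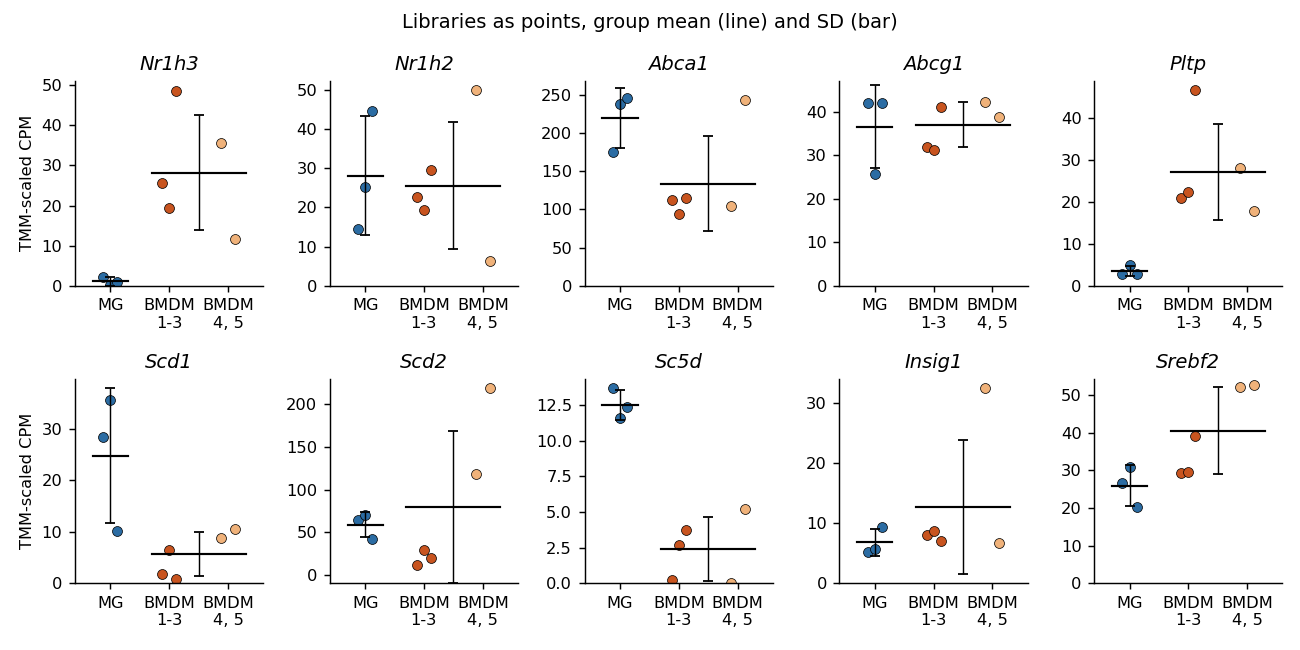
TMM-scaled CPM of 10 lipid genes in each library (points; MG, microglia), with the mean (line) and SD (bar) of the 3 microglia and the 5 BMDM libraries. Nr1h3 and Pltp are higher in every BMDM library, Sc5d is lower in every one, and Scd2 splits BMDM 1 to 3 (11.1 to 28.9 CPM) from BMDM 4 and 5 (119 and 218 CPM).

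Soat1, the enzyme that esterifies cholesterol for storage, had 87.6, 95.6 and 108 CPM in microglia and 149.7, 143, 139, 109.5 and 129 CPM in BMDM. The groups did not overlap, although microglia 3 and BMDM 4 nearly met. At a log2 fold change of 0.46 (SE 0.32) its adjusted p was 0.611. With Nr1h3, Soat1 was 1 of 2 genes of the 28 whose BMDM libraries were all above microglia (background 4.32%), and Sc5d was the 1 gene whose BMDM libraries were all below (background 8.66%).

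In cholesterol synthesis, 0 of 13 genes tested were called in either direction (background 1.93%), and the median log2 fold change was -0.28. At an unadjusted p under 0.05, 0 were higher and 1, Sc5d, was lower (background 6.49% and 7.27%). Sc5d, the desaturase that makes 7-dehydrocholesterol, had 13.7, 11.6 and 12.3 CPM in microglia and 0.266, 2.71, 3.78, 0 and 5.25 CPM in BMDM. The microglia were close together, and the highest BMDM library was below all of them. The log2 fold change was -2.37 (SE 1.06, adjusted p = 0.333). It was -2.45 (SE 0.73, adjusted p = 0.0462) with BMDM 1 to 3, where a fold of about this size passed.

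Hmgcs1, Msmo1 and Cyp51 were the enzymes of the pathway with a mean above 10 CPM. Hmgcs1, the synthase that commits acetyl-CoA to the mevalonate pathway, had 37.9, 45.5 and 43.1 CPM in microglia. In BMDM it had 24.8, 38.4, 37.5, 41.7 and 41.3 CPM, so that BMDM 1 alone was well below the rest. Its log2 fold change was -0.20 (SE 0.32, adjusted p = 0.880). Msmo1, which removes methyl groups from the sterol ring, ran from 32.5 to 53.1 CPM in microglia and from 20.1 to 53.8 in BMDM (log2 fold change -0.28, SE 0.38). Its levels in BMDM 1 to 3 (20.1, 31.5 and 29.3 CPM) were below all microglia, and those in BMDM 4 and 5 (47.3 and 53.8) were not. Cyp51, the lanosterol demethylase, stood out in microglia 1 (50.1 CPM), since microglia 2 and 3 had 24.8 and 16.0 CPM and BMDM 15.9 to 24.2. Its fitted difference of -0.55 (SE 0.41, adjusted p = 0.665) became 0.01 without microglia 1.

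The other sterol enzymes were sparse, since 11 of the 14 had a mean below 10 CPM over the libraries. Mvd, the decarboxylase that makes isopentenyl diphosphate, had 4.22 to 9.68 CPM in microglia and 8.81 to 15.4 in BMDM (log2 fold change 0.75, SE 0.59). Mvk, mevalonate kinase, was at 0.23 (SE 0.96), and Acat2, the thiolase of the first step, at -0.28 (SE 0.81), with 0.686 CPM in BMDM 3 against 4.93 to 10.51 in the other BMDM. Dhcr7, the last enzyme toward cholesterol in one branch, had 6.67 to 12.2 CPM in microglia and 3.46 to 7.63 in BMDM (log2 fold change -0.75, SE 0.71). Nsdhl, which acts beside Msmo1, was at -0.07 (SE 1.16). Fdps, farnesyl diphosphate synthase, was at -0.25 (SE 1.52) and Fdft1, squalene synthase, at -0.91 (SE 1.49). Sqle, squalene epoxidase, was at -0.74 (SE 1.30) and Lss, lanosterol synthase, at 0.07 (SE 1.80). For these last 4 genes the SE (1.30 to 1.80) exceeds the fold, and BMDM 4 had 0 counts of each. With BMDM 1 to 3 alone the SE was 0.82 to 1.28.

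As a sum, the 14 sterol synthesis genes had 195, 175 and 146 CPM in microglia and 115, 137, 118, 139 and 170 CPM in BMDM. These overlap through BMDM 5. Without Hmgcs1, Msmo1 and Cyp51 the sum was 60.4, 52.0 and 54.4 CPM in microglia and 47.7, 49.3, 35.1, 27.2 and 51.1 in BMDM. All BMDM were then below all microglia, BMDM 5 narrowly, and BMDM 4, with 7 tested genes at 0, was lowest. This separation rests on Sc5d, which entered the sum at 11.6 to 13.7 CPM in microglia and 0 to 5.25 in BMDM. With Sc5d left out as well, the groups overlap. These sums were chosen after the values were seen and are descriptions with no test. Astrocytes make much of the brain's cholesterol. Their 8 markers summed to 100.2 to 166 CPM in microglia and 21.7 to 57.0 in BMDM, mostly through Slc1a3 in microglia (84.6 to 134 CPM), the 1 of 5 tested that was called lower. Gfap was below 1 CPM in all microglia, and Aqp4 was at 0 in 2 of them. The part of these cells in the sterol levels was not tested.

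Several of these counts carry a further uncertainty, because the sources do not say whether reads were counted by strand. The last 400 bases of Fdft1 transcripts, where 3′ libraries place their reads, lie opposite Ctsb, which had 96455 counts against 157 for Fdft1. Ends of Cyp51 and Srebf1 overlap Akap9 and Rai1 on the other strand, and 253 bases of Acat2 match Acat3 and, on the other strand, Tcp1 at 98.02% identity. Fdps shares 345 bases at 99.42% identity with the pseudogene Gm3571, which had 157 counts against 184. Scd1 and Scd2 shared no stretch of 75 bases at 97% identity or more in their last 400 bases.

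Of 3 sterol sensing genes 0 were called (background 1.93%), and all 3 values were positive. Srebf2, the main activator of cholesterol synthesis, had 26.6, 31.0 and 20.1 CPM in microglia and 29.3, 29.4, 39.1, 52.0 and 52.7 CPM in BMDM. BMDM 1 and 2 lay between microglia 1 and 2, while BMDM 3 to 5 were above all microglia. Its log2 fold change was 0.65 (SE 0.37, adjusted p = 0.493). Srebf1, which favors fatty acid synthesis, had 6.15, 2.11 and 5.12 CPM in microglia and 4.26, 5.29, 12.7, 20.7 and 17.3 in BMDM. Here too BMDM 3 to 5 were above all microglia (log2 fold change 1.43, SE 0.73, adjusted p = 0.426). Insig1, which retains the SREBP complex in the endoplasmic reticulum, had 5.26, 5.73 and 9.46 CPM in microglia and 8.12, 8.74, 7.09, 32.5 and 6.77 in BMDM. Only BMDM 4 stood above microglia 3, and the fitted difference of 0.89 (SE 0.68, adjusted p = 0.668) became 0.17 without that library.

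In BMDM 4 and BMDM 5 Srebf2 and Scd2, set side by side after their values were seen, were each above every other library. These 2 are also the libraries that lacked 14.2% and 10.6% of expected genes, and the part of that loss in these levels was not tested.

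In fatty acid synthesis 0 of 7 genes were called with all libraries (background 1.93%), at a median log2 fold change of -0.57. With BMDM 1 to 3, 1 of these was higher and 2 were lower (background 6.35% and 8.11%). Scd1, a stearoyl-CoA desaturase that makes monounsaturated fatty acids, had 28.4, 35.7 and 10.2 CPM in microglia and 1.73, 6.53, 0.915, 8.75 and 10.6 CPM in BMDM. Microglia 3 and BMDM 5 met, and otherwise the groups were apart. The log2 fold change was -2.12 (SE 0.70, unadjusted p = 0.00893, adjusted p = 0.165), and with BMDM 1 to 3 Scd1 fell by 3.01 (SE 0.71, adjusted p = 0.0171). Without the filter on low counts it also passed with all libraries (adjusted p = 0.0357). Markers of tumor and cycling cells (6 genes) summed to 383, 424 and 262 CPM in microglia and 175, 263, 176, 207 and 289 CPM in BMDM, and none was called. Among them Olig2 had 42.6, 78.9 and 14.2 CPM in microglia and 13.6, 25.0, 7.66, 0.159 and 37.5 in BMDM. In microglia 1 to 3 Sox2 had 46.3, 52.9 and 11.6 CPM, and Top2a 178, 167 and 122. Mki67 had 56.2, 65.9 and 51.3 CPM there, Cdk1 29.6, 27.2 and 29.7, and Nes 30.4, 33.1 and 33.6. The list thus held no single pattern across microglia. The part of these cells in the Scd1 levels was not tested.

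Scd2, the paralog that predominates in brain, had 63.9, 70.4 and 41.9 CPM in microglia and 11.1, 28.9, 20.02, 119 and 218 CPM in BMDM. BMDM 1 to 3 were below all microglia and BMDM 4 and 5 above all of them, and the sign of the difference depends on them. All libraries gave 0.43 (SE 0.75, adjusted p = 0.890), BMDM 1 to 3 gave -1.55 (SE 0.37, adjusted p = 0.0190). It was -0.42 with limma-voom and -0.44 without BMDM 5. Oligodendrocytes express Scd2 strongly. Their 10 markers summed to 84.9 to 104 CPM in microglia, 70.6 to 135 for BMDM 1 to 3, then 152 for BMDM 4 and 96.0 for BMDM 5. None of that list was called, and Mog, Cldn11, Ugt8a and Opalin had 0 counts in BMDM 4 and 5.

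The balance of the paralogs within a library did not split the BMDM as Scd2 did. Scd2 made up 69.2%, 66.4% and 80.4% of the summed Scd1 and Scd2 counts in microglia 1 to 3. In BMDM 1 to 5 the share was 86.5%, 81.6%, 95.6%, 93.1% and 95.4%. Every BMDM library was above every microglia library, BMDM 4 and 5 included. The share was chosen after the values were seen and is given as a description. It is a share of counts, from genes whose transcripts may be captured unequally.

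Elovl5, which lengthens polyunsaturated fatty acids, had 29.4, 20.6 and 23.9 CPM in microglia and 46.3, 44.2, 44.3, 48.9 and 12.6 CPM in BMDM. BMDM 1 to 4 were above all microglia and BMDM 5 below all of them. The log2 fold change was 0.67 (SE 0.43, adjusted p = 0.581). BMDM 1 to 3 alone gave 0.87 (SE 0.27, adjusted p = 0.0497). Acly, which releases acetyl-CoA from citrate in the cytosol, had 49.5 to 59.9 CPM in microglia and 28.9 to 83.2 in BMDM, a log2 fold change of -0.02 (SE 0.36). Acaca, the carboxylase of the committed step, was at -0.57 (SE 0.56), and Fasn, fatty acid synthase, at -0.80 (SE 0.55), with 3.18 CPM in BMDM 4. Elovl6, which lengthens saturated chains, was at -0.90 (SE 1.37) with at most 5.05 CPM in any library.

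A further 41 genes of the same pathways, listed by role, gave 2 called higher and 1 lower among the 40 tested (background 1.11% and 0.814%), at a median log2 fold change of 0.15. All 3 calls were among the 8 genes listed as liver X receptor targets. That role was assigned by name, and whether each gene answers to the receptors in these mouse cells was not tested. Pltp, the phospholipid transfer protein, had 2.89, 4.93 and 2.78 CPM in microglia and 21.0, 22.3, 46.7, 28.2 and 17.8 CPM in BMDM. All 5 BMDM libraries were above all microglia, 7.69-fold on average (log2 2.94, SE 0.51, adjusted p = 0.00759). Leaving out microglia 1 or microglia 3 ended the call (adjusted p = 0.0586 and 0.0719).

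Smpdl3a, a phosphodiesterase, had 5.73, 3.82 and 4.78 CPM in microglia and 20.9, 22.5, 24.6, 12.9 and 18.1 CPM in BMDM, without overlap. It rose by 2.05 (SE 0.49, adjusted p = 0.0463), and the call was lost without any 1 of the microglia or of BMDM 1 to 3, with limma-voom and without the filter (adjusted p from 0.0735 to 0.263). Abca9, a transporter of the ABCA group, went the other way. It had 63.5, 34.8 and 55.8 CPM in microglia and 15.05, 11.6, 15.7, 9.07 and 9.95 in BMDM, and fell by 2.07 (SE 0.37, adjusted p = 0.00876). Without microglia 1 or microglia 3 its adjusted p was 0.0824 or 0.0542. Apoe, the main apolipoprotein made by macrophages and glia, had 1151, 1340.1 and 2487 CPM in microglia and 6989.7, 7045, 10283, 7739 and 3264 in BMDM. These did not overlap, and the fitted difference of 2.09 (SE 0.52, adjusted p = 0.0563) missed the threshold, which it passed with BMDM 1 to 3 (2.31, adjusted p = 0.00406) and with DESeq2.

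Lpcat3, which remodels phospholipids, and Mylip, a ubiquitin ligase, are also on the target list and were picked after their values were seen. Lpcat3 had 24.1 to 53.7 CPM in microglia and 6.91 to 22.8 in BMDM, without overlap (log2 fold change -1.23, SE 0.43, adjusted p = 0.194). Mylip was at -0.59 (SE 0.40, adjusted p = 0.603) with all libraries, and BMDM 1 to 3 gave -1.13 (SE 0.28, adjusted p = 0.0207). Arl4c and Apoc1, the remaining genes of that list, had positive values. Arl4c was at 0.80 (SE 0.41, adjusted p = 0.429) with all libraries. With BMDM 1 to 3 Arl4c was at 0.99 (SE 0.27, adjusted p = 0.0299). Apoc1 was at 0.54 (SE 1.13, adjusted p = 0.913) with all libraries. Of the 8 genes listed as targets, 5 had a positive log2 fold change and 3 a negative one. For 3 of the 8 every BMDM library was above all microglia, and for 2 every one was below (background 4.32% and 8.66%).

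**Figure D4:**
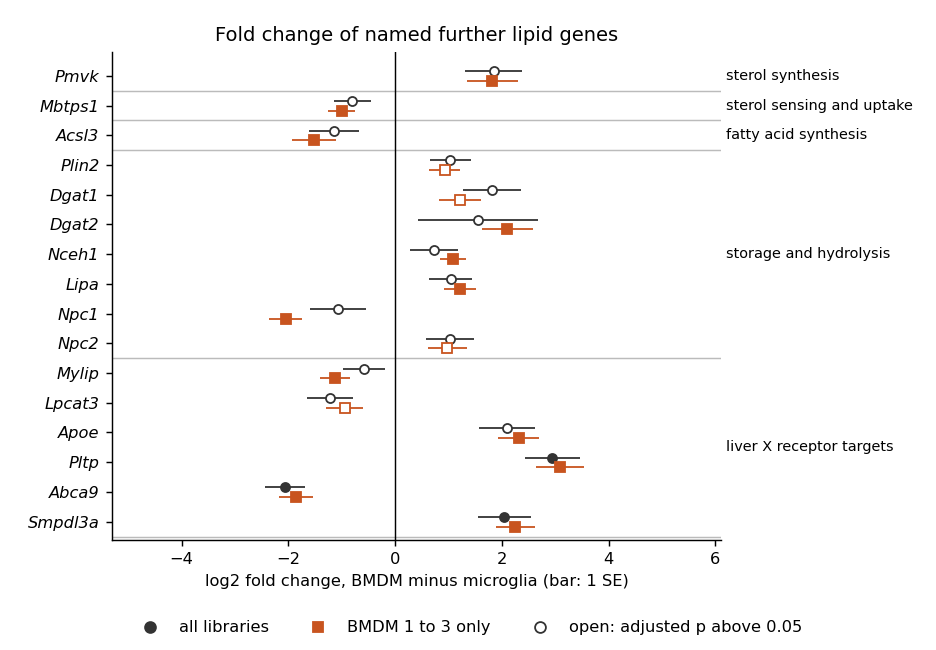
Log2 fold change (BMDM minus microglia) with 1 SE for 16 of the 40 further lipid genes tested, all named in the text, by role. Circles are all libraries and squares BMDM 1 to 3 alone. Filled symbols have an adjusted p below 0.05. Pltp, Smpdl3a and Abca9 are filled in both fits, and Npc1 shifts from -1.07 to -2.05 when BMDM 4 and 5 are left out.

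Outside that role edgeR called no gene of the further list with all libraries, while DESeq2 called Pmvk, Plin2, Dgat1 and Npc2 higher. With BMDM 1 to 3 alone 8 of the 40 were higher and 5 lower (background 6.35% and 8.11%). In storage and hydrolysis, Nceh1 and Lipa, hydrolases of cholesterol esters, were both higher in that comparison. Nceh1 was at 1.09 (SE 0.24, adjusted p = 0.0132), and for Lipa the value was 1.22 (SE 0.30, adjusted p = 0.0224). Dgat2, which makes triglyceride, was at 2.10 (SE 0.48, adjusted p = 0.0149). Npc1, which moves cholesterol out of lysosomes, was at -2.05 (SE 0.31, adjusted p = 0.00255). It had 127, 149 and 207 CPM in microglia, while BMDM 1 to 3 had 47.0, 42.9 and 25.2, BMDM 4 had 82.0 and BMDM 5 had 187. As for Abca1, BMDM 5 was the one BMDM library within the microglial range.

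Pmvk, phosphomevalonate kinase, had 6.15, 18.7 and 9.46 CPM in microglia and 36.1, 61.4, 21.8, 20.2 and 65.4 in BMDM. No library overlapped, and the difference of 1.84 (SE 0.53) missed the threshold with all libraries in edgeR (adjusted p = 0.100) and passed it in DESeq2 (adjusted p = 0.0150) and with no filter (adjusted p = 0.0202). BMDM 1 to 3 gave 1.82 (SE 0.48, adjusted p = 0.0279). Mbtps1, the protease that releases SREBP, was at -0.80 (SE 0.35, adjusted p = 0.320) and -1.005 (adjusted p = 0.0248) in these 2 fits. Acsl3, which activates fatty acids, was at -1.14 (SE 0.47, adjusted p = 0.275) and -1.52 (adjusted p = 0.0321). Plin2, which coats lipid droplets, and Dgat1, which makes triglyceride, were picked after their values were seen. Plin2 had 72.5 to 132 CPM in microglia and 145 to 290.2 in BMDM, and Dgat1 12.7 to 14.99 and 21.2 to 112. Neither overlapped between groups. With all libraries their adjusted p was 0.223 and 0.119 in edgeR and 0.0356 and 0.0185 in DESeq2, and Dgat1 also passed in edgeR with no filter (adjusted p = 0.0155). Npc2, which binds cholesterol in the lysosome, was likewise picked after its values were seen. It had 508 to 892 CPM in microglia and 894 to 1907 in BMDM, which nearly met, with an adjusted p of 0.320 in edgeR and 0.0493 in DESeq2.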

How the data were processed

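RNA from sorted cells was made into QuantSeq 3′ FWD libraries and sequenced as single reads, per the labels' protocols. The authors deposited unnormalized read counts per gene. Per the submitters' processing notes the tools were STAR, featureCounts, cutadapt, FastQC and DESeq2 and the build mm10, with no versions or settings given here. All identifiers and names (100%) were found in GENCODE M21 of GRCm38.

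The test was edgeR's (4.0.16, R 4.3.3) on the counts (filterByExpr, minimum count 10 and total 15; TMM factors of 0.791 to 1.29; robust quasi-likelihood fits; Benjamini-Hochberg adjustment, threshold 0.05), as BMDM minus microglia. CPM are TMM-scaled. SEs derive from the F statistic. The code was tested on simulated data. No 2 libraries of a group agreed within sampling noise (chi-square per degree of freedom at least 21.0). Alternatives were DESeq2 1.42.0, limma-voom (limma 3.58.1), RLE factors, other filters, BMDM 1 to 3 alone, Gm42418 and mitochondrial rRNA left out, a replicate block and each library left out. Transcript ends (400 bases) were searched with BLAST 2.17.0.

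The genes, lists and alternatives were chosen with earlier results of these data known. All 29 genes are named. Values per library are given for genes called with all libraries or with BMDM 1 to 3, for those whose groups do not overlap, and for examples of each role. Of the further list, called genes are named, at most 4 a role by fold. A few results on other genes are not reported here.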

Additional observations from a re-analysis of the deposited data

Results flagged for a closer look

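For each of the 29 genes, the highest and lowest of the 5 BMDM libraries were compared with the rest, and 5 values stood apart by Dixon's criterion, which chance meets in about 1 of 20 groups. BMDM 4 had 32.5 CPM of Insig1, where the other BMDM had 6.77 to 8.74. BMDM 5 had 243 CPM of Abca1 (94.1 to 114 in the others) and 12.6 CPM of Elovl5 (44.2 to 48.9). BMDM 1 had 24.8 CPM of Hmgcs1 (37.5 to 41.7), and 1.60 CPM of Idi1 (0 to 0.114), which is 12 counts. These 5 values fall in 3 libraries, and 3 of them in BMDM 4 and 5.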

How the results depend on the processing

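Over 16 alternatives, 392 of 437 values of single genes among the 29 kept their direction and side of the threshold. The sign turned in 33, from 9 genes, and of these 1 passed the test (Scd2). The cause was not tested. Called genes numbered 317 of all genes, 1 of the 29 and 3 of the further 41. They numbered 914 and 8 (all genes and further list) with DESeq2, 721, 2 and 5 with no filter, and 2340, 6 and 13 with BMDM 1 to 3 alone. Limma-voom, which moved the median of all genes by -0.31, called 0 of the 29. Leaving out 1 library gave 104 (without microglia 3) to 1138 (without BMDM 5) of all genes, 0 to 2 of the 29, and 0 to 6 of the further list, where microglia 1 and microglia 3 each gave 0. The sources do not say that a shared number marks a shared mouse, so numbers were not taken to pair libraries in the main fit. Libraries with the same number correlated at 0.28, 0.13 and -0.01 in their deviations, and those with different numbers at -0.30 to 0.27. For microglia 1 and 2, though not 3, the BMDM of the same number correlated highest, which does not settle whether they are paired. With the replicate block 3223, 6 and 16 were called, and log2 fold changes were 0.16 for Nsdhl, -1.61 for Scd2 and -0.047 for Abcg1. Numbers 4 and 5 occur only in BMDM, so BMDM 4 and 5 add nothing to the difference in that fit. The difference rests on the same libraries as with BMDM 1 to 3 alone, taken as pairs.

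Signs turned for small or split values. Nsdhl was at 0.0297 with RLE factors, 0.0300 with DESeq2 and 0.13 with BMDM 1 to 3. Acly was at 0.0745 with RLE factors, 0.0744 with DESeq2, 0.087 with the stricter filter and 0.048 without Gm42418. Limma-voom gave -0.70 for Lss and -0.42 for Scd2, and BMDM 1 to 3 gave -1.55 for Scd2 and -0.058 for Abcg1. Abcg1 was at -0.0081 with no filter. Leaving out 1 library gave -0.52 to 0.024 for Acat2, -0.95 to 0.48 for Fdps, -0.84 to 0.65 for Lss, -0.93 to 0.012 for Cyp51 and -0.31 to 0.23 for Nsdhl. It gave -0.23 to 0.12 for Acly, -0.44 to 0.72 for Scd2, -0.51 to 0.30 for Nr1h2 and -0.23 to 0.12 for Abcg1. A floor of 3 counts is 0.158 to 0.478 CPM in these libraries, and 7 tested genes among the 29 had 0 counts in BMDM 4.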
